A study of Mus musculus with 24 samples.

Results

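Chromatin accessibility at the colony-stimulating factors and their receptors was compared across cultured mouse macrophages. The 8 genes were the ligands Csf1, Csf2 and Csf3 and the receptor genes Csf1r, Csf2ra, Csf2rb, Csf2rb2 and Csf3r. Their peaks were taken by position only: a consensus peak counted if it overlapped the gene body or the 20 kb on either side of it (GENCODE vM21, mm10), and each peak was given to the nearest of the 8 genes. This gave 92 of the 184158 consensus peaks, of which 91 passed the filter on low counts. The peak that did not pass lay in an intron of Csf1, with 3 to 21 read pairs per library.

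Colony-stimulating factors are the cytokines that make myeloid progenitors survive, divide and mature. M-CSF (Csf1) acts through the tyrosine kinase receptor CSF1R, which macrophages need to survive in most tissues, and G-CSF (Csf3) acts through the G-CSF receptor (Csf3r) on neutrophils and their precursors. GM-CSF (Csf2) binds a specific alpha chain (Csf2ra) and signals through the common beta chain (Csf2rb), which also serves IL-3 and IL-5 and passes the signal to JAK2 and STAT5. Mice carry another beta chain gene, Csf2rb2, that serves IL-3. GM-CSF is the factor that alveolar macrophages depend on, and macrophages, fibroblasts and endothelial cells make G-CSF, GM-CSF and M-CSF when they meet bacterial products.

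Open DNA was profiled by ATAC-seq, a transposase-based assay, in 24 libraries of bone marrow-derived macrophages, 6 each of WT and AhR-KO cells left unstimulated (here called resting) and 6 each of WT and AhR-KO cells treated with LPS. WT marrow came from C57BL/6J mice. AhR-KO marrow came from the Ahr tm1Bra line, in which the gene for the aryl hydrocarbon receptor (AhR), a ligand-activated transcription factor, is disrupted in all cells. The strain name of this line also holds a strain other than C57BL/6J. In the genotype comparisons, line background and loss of AhR go together, and the part of each was not tested. Cultures of every group received GM-CSF itself, at 10 ng/ml from the start, together with TGF-β at 2 ng/ml in medium with 10% serum. The study's methods add a later exchange of part of the medium for medium with higher concentrations of both. The ligand of the GM-CSF receptor was thus present throughout, and no group without it was analysed here. LPS, a bacterial cell wall component, was given from day 6 at 97 EU/ml over 24 h, and a calcium ionophore at 5 µM for 10 min. The protocol text with LPS stands in the labels of resting libraries too, and libraries were grouped by their treatment label. The study's figure legend gives 6 animals per group from a single experiment for these data. The labels do not tie libraries to animals or say whether groups share animals, so p-values measure the spread between these libraries within that experiment.

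Counts in consensus peaks summed to between 8.54 and 34.6 M read pairs per library, lowest in resting WT replicate 5 and between 25.1 and 34.6 M in WT with LPS. Levels are given as CPM, counts of read pairs in a peak per M of the normalized total. The peak over the Ahr start site ran from 19 to 24.6 CPM in the 12 WT libraries and from 11.5 to 16.8 CPM in the 12 AhR-KO libraries without overlap. This reads the promoter and not the disrupted exon, which was not looked at. All 7 macrophage marker genes had a peak over their start site that was called in all 24 libraries, with mean levels of 18 to 46.6 CPM. The median over the start site peaks of 13918 genes was 21.7 CPM. The 3 T cell and 3 B cell markers had no peak over the start site. Of 3 fibroblast markers, Col1a1 and Dcn had none, while Pdgfra (mean 14.7 CPM) was called in all 24 libraries. Of 5 neutrophil markers, Ly6g and Elane had none, while S100a8 (mean 19.4 CPM) and Camp (20.4 CPM) were called in all 24 libraries and Mpo (4.25 CPM) in 17, and their sum ran from 31.2 to 42 CPM in resting WT, 36.5 to 40.5 in resting AhR-KO, 41.3 to 55.2 in WT with LPS and 50.6 to 57.9 in AhR-KO with LPS. The summed level over the macrophage start sites moved with the groups, at 186 to 196 CPM in resting WT, 203 to 244 in resting AhR-KO, 144 to 155 in WT with LPS and 130 to 170 in AhR-KO with LPS. For 4 alveolar-like markers (Pparg, Siglecf, Itgax and Car4) it ran from 46.6 to 54.8 CPM in WT and 66.8 to 80.8 in AhR-KO at rest, without overlap, and from 42.7 to 52.5 and 50.1 to 64.6 with LPS. The part of these marker levels in the results below was not tested. In bulk chromatin, fewer cells with an open region and a less open region in each cell cannot be told apart.

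The reference sequence at the centre of 4 peaks away from the start sites is shown, since each carried one of the clearest differences described below. The first lies upstream of Csf2 and opened with LPS (chr11:54251507-54251806), the next lies far upstream of Csf1 and was more open in AhR-KO (chr3:107778035-107778334), another upstream of Csf1 opened with LPS (chr3:107776119-107776418), and the last lies downstream of Csf2rb2 and was less open in AhR-KO (chr15:78276189-78276488). All are 300 bases of GRCm38.p6 on the minus strand, which is the strand of these genes, and all lie outside annotated exons. Capitals mark matches, on either strand, to GCGTG (the core bound by AhR with ARNT), TGANTCA (AP-1), TTCNNNGAA (STAT), GAGGAA (the core bound by PU.1) and the NF-kB consensus, and matches to different motifs may share bases.
Csf2 upstream: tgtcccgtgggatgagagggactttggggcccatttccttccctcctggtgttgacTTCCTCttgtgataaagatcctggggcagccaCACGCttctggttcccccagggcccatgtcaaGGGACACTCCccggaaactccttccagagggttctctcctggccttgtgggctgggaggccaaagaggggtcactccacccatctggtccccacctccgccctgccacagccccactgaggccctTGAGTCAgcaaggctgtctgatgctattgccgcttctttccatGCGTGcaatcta
Csf1 far upstream: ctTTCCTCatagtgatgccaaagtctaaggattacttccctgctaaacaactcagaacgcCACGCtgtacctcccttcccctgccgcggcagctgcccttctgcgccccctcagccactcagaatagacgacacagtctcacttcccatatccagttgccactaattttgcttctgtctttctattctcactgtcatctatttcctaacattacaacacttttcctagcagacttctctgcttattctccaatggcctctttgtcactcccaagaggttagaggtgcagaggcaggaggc
Csf1 opened with LPS: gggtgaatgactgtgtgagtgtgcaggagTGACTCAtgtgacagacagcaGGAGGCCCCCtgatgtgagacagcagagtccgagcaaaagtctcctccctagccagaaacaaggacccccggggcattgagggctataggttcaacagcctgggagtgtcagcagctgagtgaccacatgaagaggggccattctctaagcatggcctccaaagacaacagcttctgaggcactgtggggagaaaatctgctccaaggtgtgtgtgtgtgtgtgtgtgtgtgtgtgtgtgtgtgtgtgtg
Csf2rb2 downstream: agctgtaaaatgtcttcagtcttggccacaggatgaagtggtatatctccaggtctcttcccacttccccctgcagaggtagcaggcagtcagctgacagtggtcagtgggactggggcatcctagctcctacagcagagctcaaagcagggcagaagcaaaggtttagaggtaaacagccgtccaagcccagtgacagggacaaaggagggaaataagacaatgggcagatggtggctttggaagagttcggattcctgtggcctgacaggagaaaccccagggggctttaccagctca
The Csf2 stretch held 2 GCGTG matches, 1 AP-1 match, 1 GAGGAA match and 1 NF-kB match. The Csf1 stretch that opened with LPS held 1 AP-1 and 1 NF-kB match, while the far upstream stretch held 1 GCGTG and 1 GAGGAA match, and the Csf2rb2 stretch held 0 matches to any of the 5. Such a match is a description of letters and not a measured binding site.

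Over the 8 genes together, more of these peaks differed with LPS than between AhR-KO and WT. Peaks were called differentially accessible regions (DARs) at a Benjamini-Hochberg adjusted p of at most 0.05, from the quasi-likelihood test of edgeR, together with a fold change of at least 1.5. With LPS in WT, 34 of the 91 peaks were higher and 11 lower, where 25.4% and 21.6% of all 174193 peaks tested were higher and lower. With LPS in AhR-KO, 41 were higher and 15 lower, against 27.3% and 21.5% of all peaks. At rest, 9 peaks were higher and 10 lower in AhR-KO than in WT, against 9.95% and 12.6%, and with LPS 11 were higher and 5 lower, against 13.4% and 13.1%. The interaction (the genotype difference under LPS minus that at rest) was higher at 9 peaks and lower at 5, against 5.83% and 4.58% of all peaks. After all libraries were thinned to the total of the shallowest, an interaction was called at 5 of the 81 peaks then tested.

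As shares of the 91 peaks, 9.89% were higher and 11% lower in resting AhR-KO, and 12.1% higher and 5.49% lower in AhR-KO with LPS. Those higher with LPS made up 37.4% in WT and 45.1% in AhR-KO and those lower 12.1% and 16.5%. The genotype shares at rest lay near those of all peaks, while more of the 91 were higher with LPS, and fewer lower, than among all peaks. The higher peaks were uneven over the genes. Csf2rb2 alone held 12 of the 34 in WT and 14 of the 41 in AhR-KO. By gene, the share higher with LPS ran from 0% at Csf3r in both genotypes to 75% in WT and 87.5% in AhR-KO at Csf2rb2. The comparisons share libraries, so their counts are not independent of each other. Wherever a gene had 0 DARs in one comparison and direction by edgeR, DESeq2 also called 0.

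**Figure D1:**
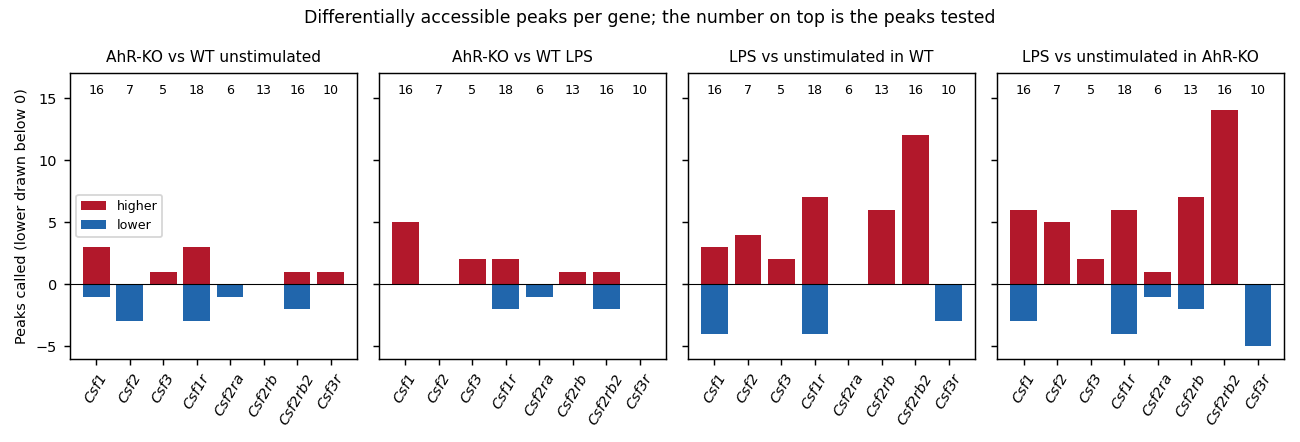
Number of differentially accessible peaks at each gene in 4 comparisons, with higher peaks drawn above 0 and lower peaks below 0, and the number of peaks tested on top. Csf2rb2 had 12 and 14 higher peaks with LPS in WT and AhR-KO and 0 lower, and Csf3r had 3 and 5 lower peaks and 0 higher.

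Csf2, which encodes GM-CSF, lies at chr11:54247271-54249667 on the minus strand, and 7 peaks were tested. Its start site was less open at rest in AhR-KO than in WT, and opened with LPS in both genotypes. The peak over the start site (chr11:54249120-54249992) ran from 1.24 to 2.66 CPM in resting WT (median 1.54), from 0.638 to 1.1 in resting AhR-KO (median 0.857), from 2.87 to 4.36 in WT with LPS (median 3.46) and from 2.76 to 4.16 in AhR-KO with LPS (median 3.17). All 6 resting AhR-KO libraries lay below all 6 resting WT libraries, both LPS groups lay above both resting groups, and the LPS groups overlapped each other. The level in AhR-KO was 1.99-fold lower at rest (log2 fold change -0.99, SE 0.2, adjusted p = 0.00012), and under LPS the difference was -0.15 (SE 0.145, adjusted p = 0.426). LPS raised it 2.09-fold in WT (adjusted p = 5.92e-07) and 3.76-fold in AhR-KO (adjusted p = 9e-12), and the interaction of 0.84 was itself called (SE 0.248, adjusted p = 0.0173). The peaks called in each library on its own followed these levels, in 3 of 6 resting WT, 0 of 6 resting AhR-KO and 6 of 6 libraries of each LPS group. At rest the counts behind these levels were small, with 11 to 61 read pairs per library in WT and 14 to 25 in AhR-KO.

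The peak 1.99 kb upstream of Csf2, whose centre is printed above, showed the steepest opening with LPS at this gene. It held 3 to 15 read pairs per library in resting WT and 4 to 12 in resting AhR-KO, at medians of 0.497 and 0.293 CPM, and rose to medians of 1.69 CPM in WT and 2.19 CPM in AhR-KO. Every LPS library lay above every resting library. The rise was 3.25-fold in WT (adjusted p = 4.61e-08) and 7.31-fold in AhR-KO (adjusted p = 1.84e-13), and the interaction was 1.17 (SE 0.351, adjusted p = 0.02). Peak calling found it in 0 of the 12 resting libraries and in 5 of 6 WT and 6 of 6 AhR-KO libraries with LPS.

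Further upstream of Csf2, the peak at 7.23 kb ran from 2.62 to 3.43 CPM in resting WT and from 1.81 to 2.17 in resting AhR-KO without overlap, 1.54-fold lower in AhR-KO (adjusted p = 0.000478). Under LPS the difference at this peak was -0.47 (adjusted p = 0.00254), short of the fold set for a DAR, and after thinning it was -0.61 (adjusted p = 0.00976) and passed. A peak at 4.58 kb, picked out after its values were seen, was 1.78-fold lower in AhR-KO at rest (adjusted p = 0.000463) with no overlap of the groups, and 2.09-fold higher with LPS in AhR-KO (adjusted p = 2.13e-06). Downstream of the gene, the peak 12.4 kb from the start site rose from a median of 7.58 to 12.4 CPM in WT (1.7-fold, adjusted p = 2.15e-08) and from 7.69 to 11.4 in AhR-KO (1.52-fold, adjusted p = 1.2e-06). In all, 3 of 7 Csf2 peaks were lower in resting AhR-KO and 4 in WT and 5 in AhR-KO were higher with LPS. Of all peaks tested, 12.6% were lower in resting AhR-KO, and 25.4% and 27.3% were higher with LPS in WT and AhR-KO. Between genotypes under LPS 0 of 7 were called by edgeR or DESeq2, where 2 had an unadjusted p under 0.05. Among all peaks 13.4% were higher and 13.1% lower in that comparison. The 2 outermost upstream peaks lay nearer the start site of Il3, the neighbouring gene for the multilineage cytokine IL-3.

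**Figure D2:**
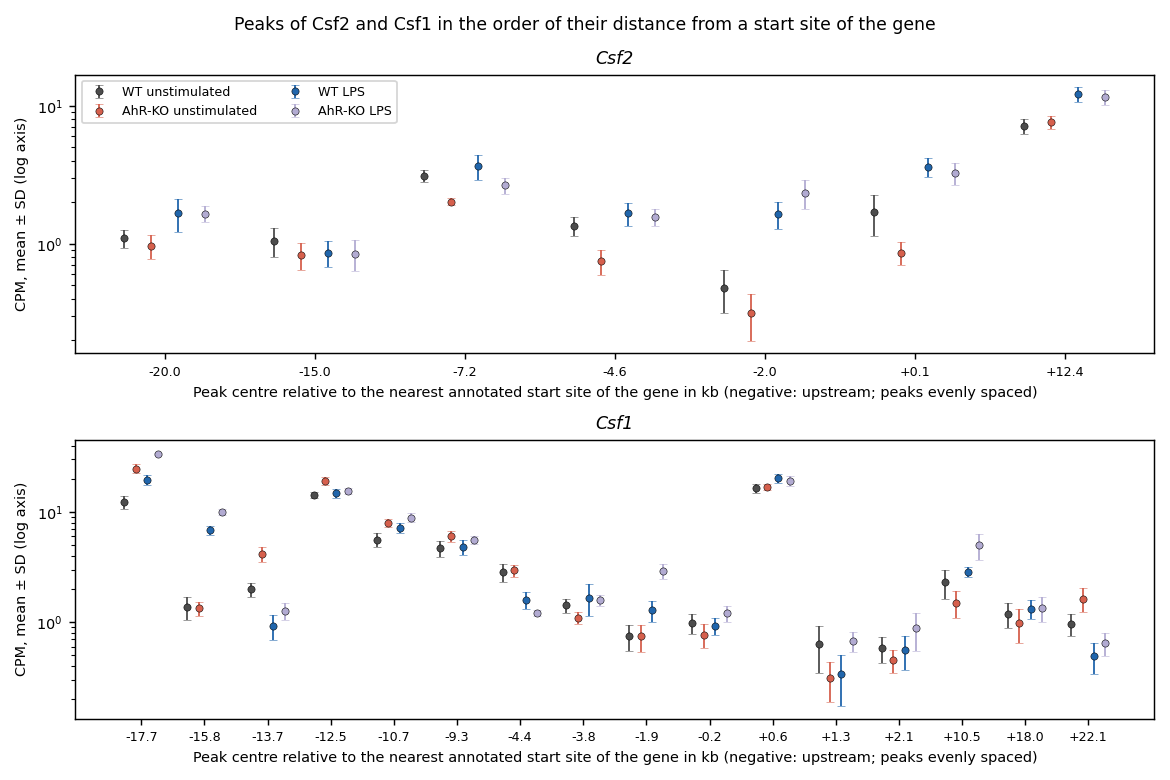
Mean CPM with SD (6 libraries per group, log axis) at each tested peak of Csf2 and Csf1, ordered by the distance of the peak centre from the nearest annotated start site of the gene. At the Csf2 start site the resting AhR-KO group has the lowest mean, 0.862 CPM, and 17.7 kb upstream of Csf1 both AhR-KO groups lie above the WT group of the same treatment.

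Csf1, the gene of M-CSF, lies at chr3:107741048-107760469 on the minus strand, with 16 peaks tested. Its main start site differed little between groups, and the differences sat upstream of it, within the gene and beyond its 3′ end. The peak over the main start site (chr3:107758346-107760831) had medians of 16.5 CPM in resting WT, 17.2 in resting AhR-KO, 20.3 in WT with LPS and 19.3 in AhR-KO with LPS, and was no DAR in the 5 comparisons. The largest difference there was 1.22-fold higher with LPS in WT (adjusted p = 0.00155). The peak 17.7 kb upstream (chr3:107777564-107778805) was more open in AhR-KO with and without LPS. It ran from 10.1 to 14.7 CPM in resting WT (median 11.9), from 22.6 to 27.3 in resting AhR-KO (median 24.4), from 15.2 to 21.1 in WT with LPS (median 20.3) and from 32.7 to 35.1 in AhR-KO with LPS (median 33.6). The AhR-KO libraries lay above all WT libraries of the same treatment. The level was 2.05-fold higher in AhR-KO at rest (log2 fold change 1.03, SE 0.0804, adjusted p = 1.51e-12) and 1.72-fold higher under LPS (0.79, SE 0.0734, adjusted p = 1.17e-10), and the interaction was -0.25 (adjusted p = 0.12). LPS raised it 1.62-fold in WT (adjusted p = 1.72e-09), and in AhR-KO the difference of 1.36-fold (adjusted p = 1.69e-06) did not reach the fold set for a DAR.

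Next to it, the peak 15.8 kb upstream of Csf1 (chr3:107775855-107776682) was low at rest in both genotypes and opened with LPS. Its medians were 1.5 CPM in resting WT and 1.31 in resting AhR-KO, then 7.01 in WT and 9.8 in AhR-KO with LPS, and it was called in 0 of 12 resting and 12 of 12 LPS libraries. The rise was 5.04-fold in WT (adjusted p = 5.57e-18) and 7.45-fold in AhR-KO (adjusted p = 1.14e-21). Under LPS all 6 AhR-KO libraries, from 9.44 to 10.8 CPM, lay above all 6 WT libraries, from 5.83 to 7.67 CPM, a difference of 0.55 (SE 0.097, adjusted p = 1.49e-05) that was 1.47-fold and so just short of a DAR. The peak from 107739512, just beyond the 3′ end of the gene, had medians of 2.12 and 1.55 CPM at rest and 3 and 5.16 CPM with LPS in WT and AhR-KO. It was 1.75-fold higher in AhR-KO under LPS (adjusted p = 7.74e-05), where the groups did not overlap, and the interaction was 1.39 (SE 0.256, adjusted p = 0.000309).

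Under LPS, 5 of 16 Csf1 peaks were higher in AhR-KO and 0 lower by edgeR (1 lower had an unadjusted p under 0.05), and at rest 3 were higher and 1 lower. Of all peaks tested, 13.4% were higher and 13.1% lower under LPS, and 9.95% and 12.6% at rest. Of the peaks picked out after their values were seen, an intronic one from 107752473 had medians of 0.727 and 0.712 CPM at rest, and 1.27 CPM in WT and 2.99 CPM in AhR-KO with LPS. It was 2.27-fold higher in AhR-KO under LPS (adjusted p = 1.37e-07) without overlap, and its interaction was 1.13 (adjusted p = 0.00467). Another, 13.7 kb upstream, was 2.06-fold higher in AhR-KO at rest (adjusted p = 4.78e-07) and fell with LPS, 2.19-fold in WT (adjusted p = 3.21e-07) and 3.27-fold in AhR-KO (adjusted p = 1.44e-12). Among the peaks from 10.7 to 17.7 kb upstream of Csf1, the direction with LPS differed from peak to peak, while the resting level was higher in AhR-KO at 4 of 5 by adjusted p, at a log2 difference of 0.43 to 1.04, of which 2 reached the fold of a DAR. The sum over all tested Csf1 peaks ran from 63.5 to 74.3 CPM in resting WT and from 83.6 to 96.9 in resting AhR-KO, and from 78.8 to 89.3 in WT with LPS and from 103 to 116 in AhR-KO with LPS.

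**Figure D3:**
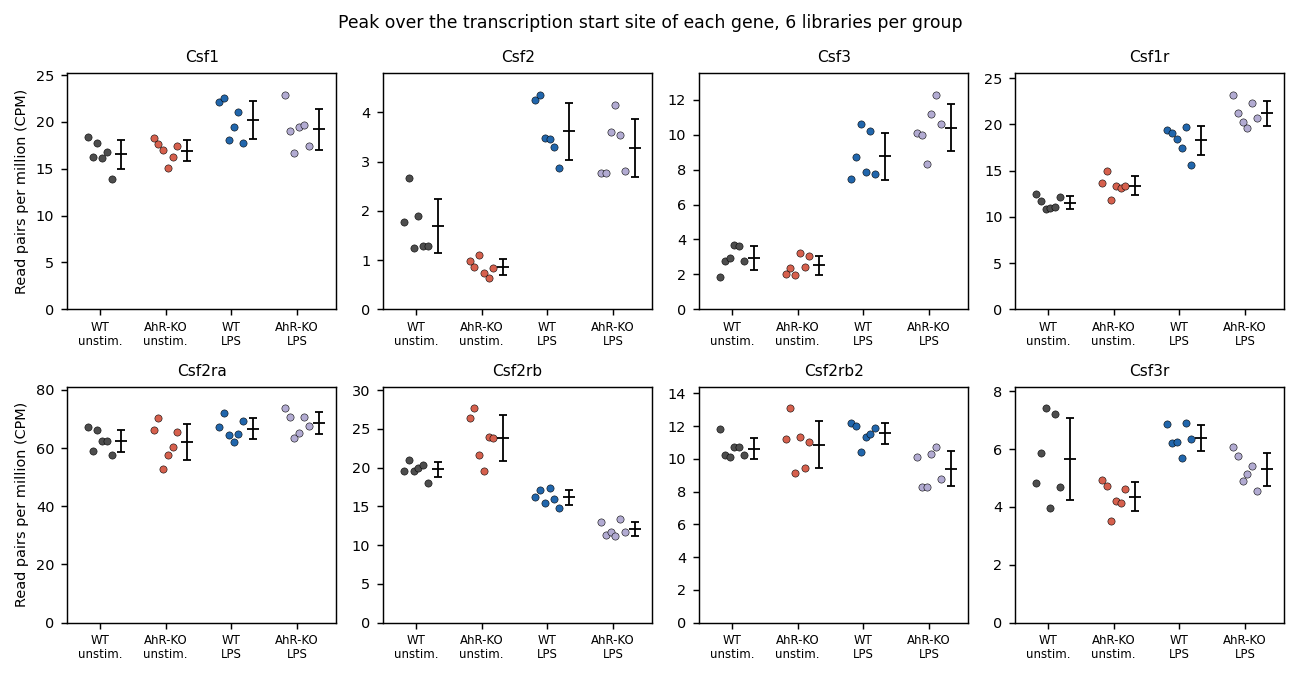
CPM of each library (points) with mean and SD (bars) for the peak over the start site of each of the 8 genes, with 6 libraries per group and axes from 0. The points of Csf3 and Csf1r shift up with LPS in both genotypes, those of Csf2rb shift down with LPS, most in AhR-KO, and the groups of Csf2ra all overlap.

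Csf3, the gene of G-CSF, lies at chr11:98701263-98703629 on the plus strand between Psmd3 and Med24, with 5 peaks tested. Its start site peak (chr11:98700009-98701538) opened with LPS in both genotypes. It ran from 1.85 to 3.68 CPM in resting WT (median 2.85), from 1.98 to 3.22 in resting AhR-KO (median 2.4), from 7.46 to 10.6 in WT with LPS (median 8.3) and from 8.31 to 12.3 in AhR-KO with LPS (median 10.3). The LPS libraries lay above all resting libraries, and the genotypes overlapped within each treatment. LPS raised the level 3-fold in WT (log2 fold change 1.58, SE 0.135, adjusted p = 1.19e-12) and 4.15-fold in AhR-KO (2.05, SE 0.133, adjusted p = 4.16e-16), and the interaction of 0.47 was not called (adjusted p = 0.0923). The genotype difference was -0.22 at rest (adjusted p = 0.274) and 0.25 under LPS (adjusted p = 0.0718). A peak 5.01 kb downstream, picked out after its values were seen, held 2 to 7 read pairs per library in resting WT and 3 to 6 in resting AhR-KO. With LPS it held 30 to 108 in WT (median 1.3 CPM) and 49 to 129 in AhR-KO (median 2.45 CPM). It was higher in AhR-KO under LPS (log2 fold change 0.86), with overlap between the groups. In all, 2 of 5 Csf3 peaks (40%) were higher in AhR-KO under LPS, against 13.4% of all peaks tested. The peak 16.6 kb downstream lies inside Med24, which encodes a Mediator subunit. It ran from 1.15 to 2.25 CPM in WT against 2.78 to 4.06 in AhR-KO at rest, and from 1.23 to 1.76 against 1.93 to 2.73 with LPS. The level was 2.02-fold higher in AhR-KO at rest (adjusted p = 1.03e-06) and 1.6-fold higher under LPS (adjusted p = 0.000225), without overlap in either.

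Csf1r, the gene of the M-CSF receptor, lies at chr18:61100598-61132149 on the plus strand, with 18 peaks tested that also reach into Pdgfrb upstream and Hmgxb3 downstream. Its start site opened with LPS by a similar fold in both genotypes. The peak over it had medians of 11.4 CPM in resting WT, 13.3 in resting AhR-KO, 18.8 in WT with LPS and 20.9 in AhR-KO with LPS, and each LPS library lay above each resting one. The rise was 1.58-fold in WT (log2 fold change 0.66, SE 0.0704, adjusted p = 2.53e-10) and 1.59-fold in AhR-KO (0.67, SE 0.0682, adjusted p = 7.09e-11), with an interaction of 0.00 (SE 0.0986, adjusted p = 0.985). The level in AhR-KO was 1.16-fold higher both at rest (adjusted p = 0.0183) and under LPS (adjusted p = 0.007), below the fold of a DAR. Other peaks of the gene went the other way with LPS: 4 of 18 were lower and 7 higher in WT, and 4 lower and 6 higher in AhR-KO. The share lower, 22.2% in each genotype, lay near the 21.6% and 21.5% of all peaks tested. An intronic peak 2.43 kb after the start site, which held the most read pairs of the Csf1r peaks and was picked out after its values were seen, went from a median of 48.9 to 37.7 CPM in WT (1.32-fold, adjusted p = 2.49e-05) and from 60.1 to 41.8 in AhR-KO (1.42-fold, adjusted p = 3.21e-07), without reaching the fold of a DAR.

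Genotype differences at Csf1r were mixed in direction. At rest 3 of its peaks were higher and 3 lower in AhR-KO (16.7% each), against 9.95% and 12.6% of all peaks tested. Under LPS 2 were higher and 2 lower (11.1% each), near the 13.4% and 13.1% of all peaks. An exonic peak 21.9 kb into the gene ran from 6.01 to 9.27 CPM in resting WT and from 13.6 to 19.6 in resting AhR-KO, 1.91-fold higher without overlap (adjusted p = 4.48e-10). Under LPS the same peak ran from 12.1 to 16 CPM in WT and 15.5 to 17.5 CPM in AhR-KO, a difference of 0.21 (adjusted p = 0.0441), and the interaction was -0.72 (SE 0.127, adjusted p = 0.000153). The peak 20.3 kb upstream differed in the opposite direction at rest. It held 6 to 36 read pairs per library in resting WT and 2 to 4 in resting AhR-KO, at medians of 1.02 and 0.113 CPM, a 9.19-fold difference (log2 fold change -3.20, SE 0.349, adjusted p = 2.6e-09). Under LPS the medians were 0.326 CPM in WT and 0.386 in AhR-KO with overlap between the groups, and the interaction was 3.17 (SE 0.485, adjusted p = 2.36e-05). The peak 34.9 kb downstream, in Hmgxb3, was 2.52-fold lower in AhR-KO both at rest (adjusted p = 7.5e-05) and under LPS (adjusted p = 2.41e-06), at levels of at most 1.27 CPM.

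An exonic peak 18.9 kb into Csf1r rose with LPS from a median of 1.09 to 4.96 CPM in WT (4.11-fold, adjusted p = 6.92e-15) and from 1.71 to 7.21 in AhR-KO (4.07-fold, adjusted p = 1.66e-16). It was also 1.52-fold higher in AhR-KO at rest (adjusted p = 0.00296) and 1.5-fold higher under LPS (adjusted p = 3.93e-05). The peak 9.89 kb upstream closed with LPS, from a median of 4.05 to 1.57 CPM in WT (2.58-fold, adjusted p = 5.67e-12) and from 4.89 to 1.24 in AhR-KO (4.12-fold, adjusted p = 1.13e-16). At this peak the interaction was -0.68 (SE 0.179, adjusted p = 0.0086). Of peaks picked out after their values were seen, a short intronic one 7.56 kb into the gene ran from 0.349 to 1.54 CPM in resting WT and from 3.2 to 3.79 in resting AhR-KO, 4.12-fold higher (adjusted p = 7.2e-10), and its interaction was -1.31 (adjusted p = 0.00548). The outermost downstream peak, 41.8 kb from the start site, opened with LPS from a median of 0.81 to 7.26 CPM in WT, and in AhR-KO from 0.948 to 1.95 (8.06-fold and 2.77-fold, adjusted p = 8.1e-08 and 0.00144), and was 2.97-fold lower in AhR-KO under LPS (adjusted p = 0.000106). Its interaction of -1.54 was not called (adjusted p = 0.0585).

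**Figure D4:**
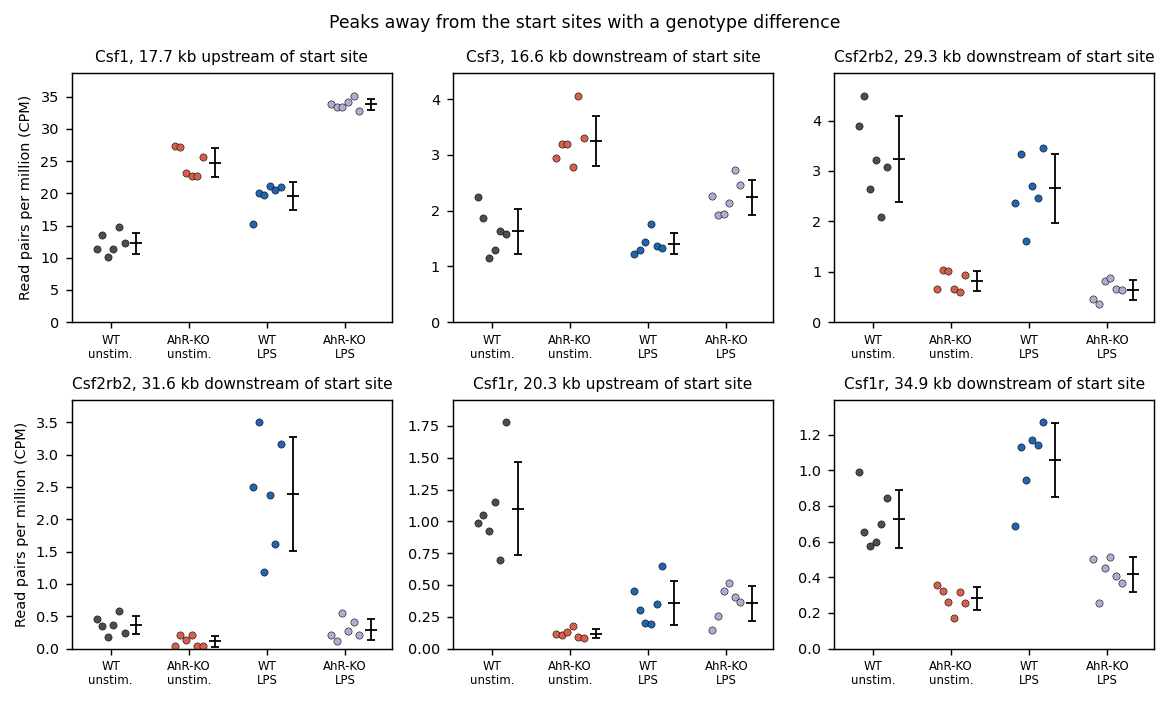
CPM of each library (points) with mean and SD (bars) at 6 peaks away from the start sites that differed between WT and AhR-KO. The AhR-KO points lie above the WT points of the same treatment at Csf1 and Csf3, below them at both Csf2rb2 peaks with LPS, and below them at rest at both Csf1r peaks.

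Csf2ra, the gene of the GM-CSF receptor alpha chain, lies at chr19:61223957-61228429 on the minus strand, with 6 peaks tested. Its start site differed little between the groups. The peak over it (chr19:61225891-61228741) had medians of 62.5 CPM in resting WT, 62.9 in resting AhR-KO, 66.1 in WT with LPS and 69.2 in AhR-KO with LPS, and no group was separated from another. The genotype difference was -0.01 at rest (SE 0.058, adjusted p = 0.93) and 0.04 under LPS (SE 0.0568, adjusted p = 0.583), and the LPS difference was 0.09 in WT (SE 0.0575, adjusted p = 0.154) and 0.14 in AhR-KO (SE 0.0572, adjusted p = 0.0265). Flanking peaks of low level did change. The peak 15.2 kb upstream had medians of 1.03 and 0.644 CPM at rest and 1.44 and 1.73 CPM with LPS in WT and AhR-KO, was 1.61-fold lower in AhR-KO at rest (adjusted p = 0.0151) and 2.74-fold higher with LPS in AhR-KO (adjusted p = 8.82e-08). Its interaction of 0.97 (adjusted p = 0.018) became 0.66 with thinned libraries (adjusted p = 0.375). The peak 10.6 kb downstream was 2.58-fold lower in AhR-KO under LPS (adjusted p = 0.000361), with a median of 0.468 CPM in WT and 0.171 CPM in AhR-KO. The peak 9.81 kb upstream missed the fold in all 5 comparisons, at 0.49 in AhR-KO against WT at rest (adjusted p = 0.00288), and with thinned libraries it passed at rest (0.72, adjusted p = 0.000907) and for LPS in WT (-0.59, adjusted p = 0.00978).

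Csf2rb, the common beta chain gene, lies at chr15:78325752-78353847 on the plus strand, with 13 peaks tested, and was the only gene of the 8 whose main start site peak was a DAR that was lower with LPS. The peak over the start site (chr15:78325534-78326564) ran from 18 to 21 CPM in resting WT (median 19.8), from 19.6 to 27.7 in resting AhR-KO (median 23.9), from 14.8 to 17.4 in WT with LPS (median 16.1) and from 11.2 to 13.4 in AhR-KO with LPS (median 11.7). The resting genotypes overlapped, the LPS groups did not, and AhR-KO with LPS lay lowest. LPS lowered it 1.97-fold in AhR-KO (log2 fold change -0.98, SE 0.0727, adjusted p = 1.75e-14), while the difference in WT was 1.22-fold (-0.29, SE 0.0722, adjusted p = 0.000637). The interaction was -0.69 (SE 0.102, adjusted p = 1.63e-05), and with thinned libraries it was -0.55 (adjusted p = 0.00346), under the fold of a DAR. Under LPS the level in AhR-KO was 1.34-fold lower than in WT (adjusted p = 1.3e-05), and at rest it was 1.21-fold higher (adjusted p = 0.00253).

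Inside Csf2rb the direction with LPS was the opposite. The exonic peak 8.67 kb after the start site rose from a median of 5.37 to 11.4 CPM in WT (2.19-fold, adjusted p = 8.89e-11) and from 7.09 to 11.2 in AhR-KO (1.58-fold, adjusted p = 2.25e-06), with no overlap between treatments. Over the gene, 6 of 13 peaks were higher and 0 lower with LPS in WT (2 lower had an unadjusted p under 0.05), and 7 were higher and 2 lower in AhR-KO. Of all peaks tested, 25.4% were higher and 21.6% lower with LPS in WT, and 27.3% and 21.5% in AhR-KO. Between genotypes at rest 9.95% of all peaks were higher in AhR-KO and 12.6% lower. There 0 of 13 Csf2rb peaks were called by edgeR or DESeq2, where 3 had an unadjusted p under 0.05. The one with the smallest p was an intronic peak 5.4 kb into the gene, 1.41-fold higher in AhR-KO (adjusted p = 0.000275). The peak 8.85 kb upstream of the gene held 0 to 1 read pairs per library in resting WT, 0 to 2 in resting AhR-KO, 3 to 10 in WT with LPS and 12 to 38 in AhR-KO with LPS. It was 3.39-fold higher in AhR-KO under LPS (adjusted p = 2.53e-05), and no fold is given against the resting groups.

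Csf2rb2, which encodes the IL-3-specific beta chain, is the neighbour of Csf2rb (chr15:78282507-78305721, minus strand) and had 16 peaks tested. Most of its peaks opened with LPS: 12 of 16 were higher in WT and 14 of 16 in AhR-KO, and 0 were lower in either by edgeR (0 and 1 had an unadjusted p under 0.05). Of all peaks tested, 25.4% and 27.3% were higher and 21.6% and 21.5% lower in WT and AhR-KO. Several Csf2rb2 peaks stayed low. Those from 78281553, 78283313, 78284636, 78302769 and 78307897 had means of 0.631 to 1.96 CPM in the LPS groups. Peak calling found each of them in at most 2 of 6 libraries of an LPS group of Csf2rb2. The log2 fold change with LPS ran over its peaks from -0.32 to 2.81 in WT, and in AhR-KO it ran from -0.36 to 1.57, where its median was 1.17 and the median over all peaks tested was 0.05. The start site itself was no DAR. Its medians were 10.4 CPM in resting WT, 11.1 in resting AhR-KO, 11.7 in WT with LPS and 9.42 in AhR-KO with LPS, and the LPS difference was 0.13 in WT (adjusted p = 0.194) and -0.20 in AhR-KO (adjusted p = 0.0348). The intronic peak 5.79 kb after the start site rose from a median of 13.7 to 24.6 CPM in WT (1.74-fold, adjusted p = 2.93e-11) and from 15.1 to 24.1 in AhR-KO (1.61-fold, adjusted p = 6.03e-10). The peak 26.7 kb from the start site, beyond the 3′ end, rose from 8.93 to 16.4 CPM in WT (1.83-fold, adjusted p = 1.11e-09) and from 7.38 to 18.8 in AhR-KO (2.36-fold, adjusted p = 1.12e-13). For the interaction 0 of 16 Csf2rb2 peaks were called by edgeR or DESeq2, and 3 had an unadjusted p under 0.05. Among all peaks tested, 5.83% were called higher and 4.58% lower for the interaction.

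A pair of peaks between the 3′ ends of Csf2rb2 and of Ncf4, which encodes a subunit of the phagocyte NADPH oxidase, were less open in AhR-KO. The peak 29.3 kb from the Csf2rb2 start site, whose centre is printed above, ran from 2.09 to 4.49 CPM in WT against 0.593 to 1.03 in AhR-KO at rest, and from 1.61 to 3.45 against 0.364 to 0.871 with LPS. It was 4.06-fold lower in AhR-KO at rest (log2 fold change -2.02, SE 0.209, adjusted p = 9.02e-10) and 4.19-fold lower under LPS (-2.07, SE 0.209, adjusted p = 6.58e-10), with no overlap in either. Peak calling found it in 5 of 6 resting and 3 of 6 LPS-treated WT libraries and in 0 of 12 AhR-KO libraries. The LPS difference was -0.32 in WT (adjusted p = 0.113) and -0.36 in AhR-KO (adjusted p = 0.208). The peak at 31.6 kb opened with LPS in WT, from 4 to 8 read pairs per library at rest to 41 to 105, while AhR-KO libraries held 1 to 5 at rest and 3 to 12 with LPS. Both rises were called, 7-fold in WT (adjusted p = 8.59e-10) and 2.49-fold in AhR-KO (adjusted p = 0.0214). The peak was 2.93-fold lower in AhR-KO already at rest (adjusted p = 0.0154), with overlap between the groups. Under LPS it was 8.24-fold lower in AhR-KO (log2 fold change -3.04, SE 0.292, adjusted p = 3.77e-10), and the interaction of -1.49 was not called (adjusted p = 0.134). Its nearest start site is that of Ncf4. Csf2rb and Csf2rb2 are close copies, so reads from their shared stretches are uncertain between them. Of all 50-base windows in a peak, 0 to 29.1% occurred exactly in the other gene, 0% in the pair of peaks just described and 2.24% and 1.84% in the start site peaks of Csf2rb and Csf2rb2.

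Csf3r, the G-CSF receptor gene, lies at chr4:126024550-126044440 on the plus strand with 10 peaks tested. With LPS, 3 of 10 peaks were lower in WT and 5 of 10 in AhR-KO, where 21.6% and 21.5% of all peaks tested were lower. By edgeR 0 were higher in either genotype (1 and 2 had an unadjusted p under 0.05), where 25.4% and 27.3% of all peaks were higher. Its start site had medians of 5.35 and 4.42 CPM at rest and 6.31 and 5.28 CPM with LPS in WT and AhR-KO and was no DAR, with an LPS difference of 0.19 in WT (adjusted p = 0.165) and 0.29 in AhR-KO (adjusted p = 0.0376). The strongest fall was 35.5 kb from the start site, beyond the 3′ end of Csf3r and inside the gene Oscp1. That peak ran from 3.27 to 5.03 CPM at rest and from 1.08 to 2 with LPS in WT, and from 3.03 to 4.51 at rest and from 0.813 to 1.55 with LPS in AhR-KO. All LPS libraries lay below all resting libraries, and the level was 2.89-fold lower with LPS in WT (adjusted p = 8.96e-11) and 3.02-fold lower in AhR-KO (adjusted p = 5.26e-11). Inside Csf3r, an intronic peak from 126030694 and an exonic peak from 126035200, both picked out after their values were seen, were 2.07-fold and 1.96-fold lower with LPS in WT (adjusted p = 1.32e-06 and 9.14e-08) and 2.09-fold and 1.98-fold lower in AhR-KO (adjusted p = 2.19e-06 and 1.02e-07). Genotype changed little at Csf3r. The peak 24.5 kb from the start site, inside the neighbouring gene Mrps15, was 1.53-fold higher in AhR-KO at rest (adjusted p = 0.000155). The peak 5.31 kb upstream was 1.3-fold higher in AhR-KO under LPS (adjusted p = 0.000363), under the fold of a DAR. The smallest interaction p at Csf3r belonged to the peak 20.2 kb upstream, at 0.22 (adjusted p = 0.174).

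**Figure D5:**
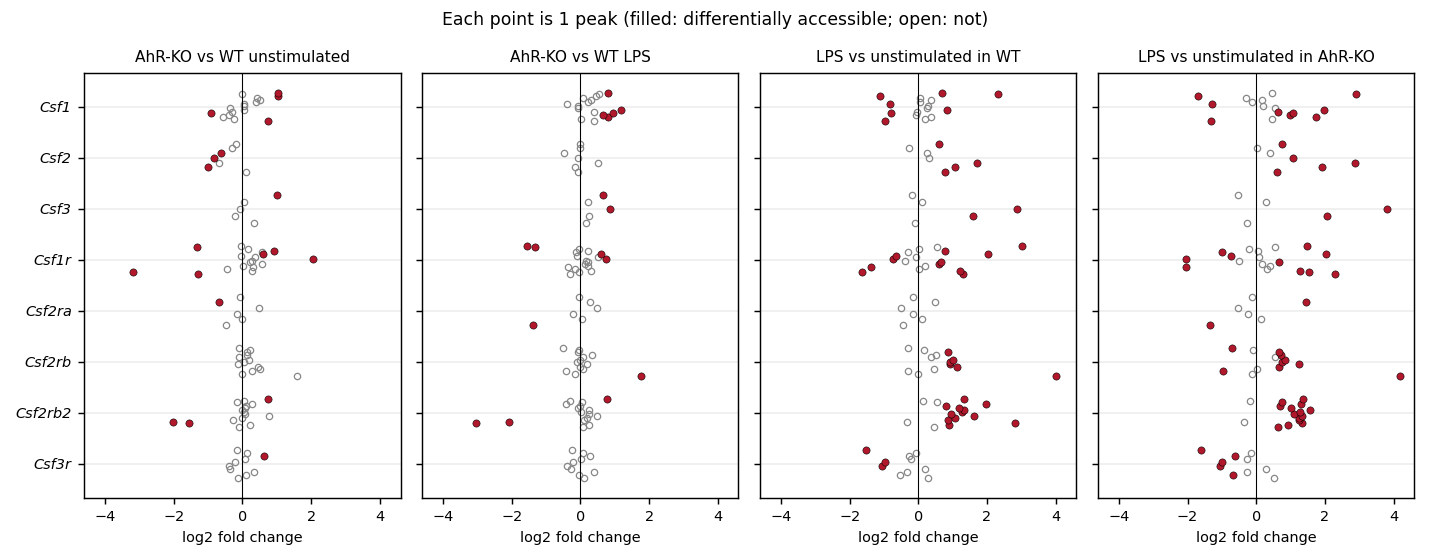
Log2 fold change of each of the 91 tested peaks (points) by gene in 4 comparisons, with filled points for differentially accessible peaks. With LPS the filled points of Csf2, Csf3 and Csf2rb2 all lie above 0 and those of Csf3r all lie below 0 in both genotypes, and the outermost Csf2rb point rests on at most 2 read pairs per resting library.

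A list of 22 genes around these receptors was counted in the same way, with 361 of 374 peaks tested. It comprised related ligands, related receptors, signalling proteins and a pair of known targets. At rest, 42 peaks of the list were lower and 37 higher in AhR-KO, and under LPS 58 were lower and 30 higher. These were 11.6% and 10.2% of the list at rest, where 12.6% and 9.95% of all peaks tested were lower and higher, and 16.1% and 8.31% under LPS, where the shares of all peaks were 13.1% and 13.4%. Most of the lower peaks at rest, 24 of 42, belonged to the related receptors, which had 57 peaks tested and 1 higher, and under LPS 25 of the 57 were lower and 4 higher. Kit, the receptor tyrosine kinase for stem cell factor, had 14 of 21 peaks lower at rest and 12 lower under LPS, and Flt3, the receptor for FLT3 ligand, had 7 and 10 of 23. The Kit start site ran from 8.96 to 12.9 CPM in WT against 3.97 to 5.3 in AhR-KO at rest, and from 11 to 15.9 against 5.47 to 7 with LPS. Kit was 2.32-fold lower there in AhR-KO at rest (adjusted p = 9.35e-12) and 2.36-fold lower under LPS (adjusted p = 1.66e-12). Its intronic peak from 75621779 was 7.13-fold lower at rest (adjusted p = 1.73e-14) and 1.77-fold lower under LPS (adjusted p = 0.000124).

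Kit and Flt3 also mark mast cells and dendritic cells. Of the other mast cell and eosinophil markers, Cpa3 and Epx had no peak over the start site, and Ccr3 had means of 0.445 CPM in WT and 0.304 in AhR-KO at rest and 0.688 and 1.04 with LPS. For the dendritic markers, with peaks at Flt3, Zbtb46 and Ccr7 and none at Xcr1, the sums were 25.7 to 34.5 and 26.6 to 32.5 CPM at rest and 28.3 to 45.2 and 20 to 25.9 with LPS. At rest these markers went in different directions. Mean CPM in WT and AhR-KO was 9.07 and 4.09 at Flt3, 0.94 and 0.551 at Ccr7, and 21.6 and 25.1 at Zbtb46. With LPS it was 11.6 and 4.73, 7.05 and 2.46, and 18 and 15.8 in the same order. The part of such cells in these results was not tested.

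Of all peaks tested, 12.6% were lower in AhR-KO at rest and 13.1% under LPS. Il34, which encodes the other ligand of CSF1R, had 3 of 14 peaks lower in AhR-KO at rest and 7 lower under LPS. Its intronic peak from 110780309 had a median of 3.41 CPM in WT and 0.407 in AhR-KO at rest, 8.9-fold lower (adjusted p = 1.17e-11), and of 1.13 and 0.252 CPM, in the same order, with LPS (4.76-fold, adjusted p = 1.96e-07). The intronic Il34 peak from 110792975 opened with LPS in WT from a median of 0.438 to 3.18 CPM and was 4.89-fold lower in AhR-KO under LPS (adjusted p = 4.12e-10).

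Pparg, which encodes a transcription factor that GM-CSF induces in alveolar macrophages, was 1.91-fold more open in AhR-KO at rest at an exonic peak (adjusted p = 4.55e-09), where the difference under LPS was 0.29 (adjusted p = 0.0245). The Pparg peak with the smallest p under LPS was 1.36-fold higher in AhR-KO (adjusted p = 7.76e-07). With LPS, 108 peaks of the list were higher and 41 lower in WT, and 105 were higher and 65 lower in AhR-KO. Higher peaks made up 29.9% and 29.1% of the list in WT and AhR-KO, against 25.4% and 27.3% of all peaks, and lower peaks 11.4% and 18%, against 21.6% and 21.5%. Jak2, the kinase that docks on the common beta chain, had 23 of 30 peaks higher with LPS in each genotype. The signalling proteins as a group had 69 of 232 higher and 19 lower in WT and 67 higher and 46 lower in AhR-KO, and the targets had 7 of 41 higher and 12 lower in WT and 7 higher and 14 lower in AhR-KO.

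For the 4 genes whose main start site peak was a DAR in some comparison, the start site peaks with the most similar pattern over the 24 libraries were listed as a description. Pearson's r of log2 CPM was computed against 12718 other distinct start site peaks, and the 24 libraries share their genotype and LPS groups. A peak over the start sites of several genes is given under a single gene name. Csf3 was closest to Acod1 (r = 0.976), the gene of the enzyme that makes itaconate, and Il12a (0.974), a subunit of IL-12. Csf2rb was closest to Lfng (0.981) and Trpv2 (0.979), Csf2 to Tpbg (0.946) and Hsh2d (0.942), and Csf1r to Parp10 (0.969) and Cgref1 (0.964).

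The same 5 motifs were counted in the 300 bases around the centre of the 73 tested peaks of the 7 genes other than Csf1r. GCGTG was found in 11 of 73 and in 16.3% of 174106 tested peaks, and in 0 of the 8 peaks that were lower in AhR-KO in at least 1 treatment and 3 of the 12 that were higher. The NF-kB consensus was found in 9 of the 36 peaks higher with LPS in at least 1 genotype, in 12 of 73 in all and in 7.29% of all peaks, and the AP-1 motif in 6 of 36, 8 of 73 and 18.1%. The STAT motif was found in 11 of 73 and 11.1%, and GAGGAA in 33 of 73 and 37.7%.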

How the data were processed

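Nuclei of 24 bone marrow-derived macrophage cultures were profiled by ATAC-seq in 4 groups of 6 libraries. The study's methods and the submitters' processing notes name the nf-core atacseq pipeline, genome build mm10, bcl2fastq 2.20.0, MACS2 and featureCounts 2.0.1. The deposited table holds whole-number counts of read pairs that the authors made with featureCounts over consensus peaks, with a minimum overlap fraction of 0.2 and no normalization. The deposited broad peak lists, made by the authors with MACS2 in each library, hold fold enrichment and −log10 p-values and q-values; here their positions served only to say in how many libraries a peak was called. All 24 columns of the table matched a sample and 0 did not.

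Tests used edgeR 4.0.16 under R 4.3.3 (filterByExpr by group, TMM factors 0.976 to 1.04, robust quasi-likelihood fit with group as the only term, Benjamini-Hochberg adjustment over 174193 peaks); the script was tested on simulated data. CPM used TMM-normalized totals (8.54 to 34.6 M read pairs before normalization), and precision is lowest at peaks with few read pairs. SE is the log2 fold change divided by the square root of F. Positions are 1-based in mm10, and distances run from the peak centre to the nearest annotated protein-coding start site of the gene. At each of the 8 genes the peak over the start site and the peak with the smallest p in each of 5 comparisons were named, and for the list of 22 genes the peak with the smallest p of each set in both genotype comparisons. One result under this rule is not reported here. The members, lists and tests were chosen with earlier results of these data known. Alternatives were RLE size factors, no filter on low counts, DESeq2 1.42.0, thinning of all libraries to the lowest total, the replicate number as a block, leaving out WT unstimulated replicate 5, a fold of 2 or none, and narrower windows. Of 60 pairs of libraries within groups, the most alike differed by a chi-square of 1.24 per peak. Sequences came from GRCm38.p6 by coordinates. The RefSeq promoter table held 5 of the 8 genes and served only for motif shares.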

Additional observations from a re-analysis of the deposited data

Results flagged for a closer look

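Of 132 groups of 6 libraries checked at the named peaks, 4 held a library whose gap to the nearest other exceeded Dixon's 95% critical value for the share of the group's range, and chance alone gives about 1 in 20. At the Csf1 peak 17.7 kb upstream, WT LPS replicate 1 lay at 15.2 CPM. At the exonic Csf1r peak from 61127428, WT unstimulated replicate 1 lay at 6.01 CPM. At the Csf3r peak from 126003592, AhR-KO LPS replicate 3 lay at 10.9 CPM. At the Csf3r peak from 126018866, AhR-KO unstimulated replicate 4 lay at 9.52 CPM. Each was the lowest of its group.

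The genotype difference differed between rest and LPS, by the interaction term, at 8 named peaks. The log2 interaction was positive at the Csf2 start site (0.84), the Csf2 peak 1.99 kb upstream (1.17), the Csf1 peak from 107739512 (1.39), the Csf1r peak from 61085110 (3.17) and the Csf2ra peak from 61243501 (0.97). It was negative at the Csf1r peaks from 61095587 (-0.68) and 61127428 (-0.72) and at the Csf2rb start site (-0.69).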

How the results depend on the processing

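The counts moved with the fold threshold and the window, and for the interaction most with thinning. A minimum fold of 2 left 9 and 7 of the 91 peaks called between genotypes at rest and with LPS, 25 and 36 for LPS in WT and AhR-KO and 6 for the interaction, and 33, 42, 90, 102 and 17 peaks of the 22-gene list in that order. Without a fold threshold, 37 and 33 of the 91 were called between genotypes, and in the list 152 and 157 between genotypes, 232 for LPS in WT and 73 for the interaction. Within 5 kb of the gene bodies, 7 and 8 peaks were called between genotypes and 37 for LPS in AhR-KO. Peaks on the gene bodies alone gave 5, 5, 24, 28 and 7, and in the list 56 between genotypes with LPS. Thinned counts left 5 interaction calls of 14. By construction, narrower windows and thinned counts hold fewer peaks or reads.

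Of the 79 named changes under 6 other fits, 458 values (where the peak was still tested) kept direction and side of the threshold, 2 lost their call, 3 gained one and 8 changed sign, all 8 at differences that were not called. Thinned counts gave 0.00 at the Csf1 main start site and 0.09 at the Csf2 start site between genotypes with LPS. The interaction at the Csf1r start site was -0.04 with RLE size factors and with DESeq2, -0.00 without the filter on low counts and -0.03 with thinned counts. The resting genotype difference at the Csf2ra start site was 0.05 with RLE size factors and with DESeq2. The cause was not tested. Leaving out WT unstimulated replicate 5 changed the call of 0 of the 79.

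Replicate numbers count as pairing here only if every same-numbered pair correlates above 0.1. Between WT unstimulated and WT LPS, 5 of 6 pairs did, with a mean of 0.191 against -0.037 for other numbers, and 7 of 12 libraries correlated best with their own number, a hint from the data and not from the design, short of this rule. In each other pair of groups at most 2 of 6 did. With the replicate number as a block, 20, 16, 45, 56 and 15 of the 91 peaks were called in the 5 comparisons, and 76, 88, 151, 171 and 39 of the list, and 0 of the 79 named changes altered their call. At the shallowest depth, peaks with under 10 read pairs per library have wide errors, and small differences there were not detectable.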
